A study of Mus musculus with 91 samples.

Results

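Among single marrow stromal cells sorted as VCAM1+CD61+, the cells with a high surface level of CD200 were set against those with a low level. Each was a separate library of the full-length Smart-seq2 method, from bone marrow of C57BL/6 mice, with no genotype, age, treatment or animal named in the labels, and each kept the fluorescence recorded when it was sorted. The cells were chosen by the measured CD200 intensity, a channel that was not part of the gate: 21 cells at 1500 or more are called CD200-high and 18 cells under 1500 are called CD200-low, together 39 of the 91 cells of the series. Both sides were negative for CD45, Ter119, CD41 and CD71, markers of blood cells, and positive for a Vibrant dye used to keep debris out, for the adhesion molecule VCAM1 and for CD61, the integrin beta 3 chain. The other cells were 40 of the VCAM1+CD61- gate, 9 of a VCAM1+ gate not split on CD61, and 3 whose title and gate label disagree. Plate 1 held 10 CD200-high and 7 CD200-low cells, and plate 2 held 11 and 11, so each contrast could be read in both plates.

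CD200 is a membrane glycoprotein of the immunoglobulin superfamily whose receptors on myeloid cells pass an inhibitory signal, and it is used as a surface marker of skeletal stem and progenitor cells. Marrow stroma holds CXCL12-abundant reticular (CAR) cells, which make the chemokine and the stem cell factor that keep blood stem cells in their niche and which carry an adipogenic program, and cells of the osteoblast lineage, which lay down type I collagen and mineral-binding proteins. Osteo-CAR cells are described as CAR cells that also express alkaline phosphatase and Wnt inhibitors.

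No label names an animal, so each side was treated as 1 sample, no test was run, and a gene is called here when its summed level was at least 2-fold higher, or at least 2-fold lower, in CD200-high cells in both plates. Counts were summed over the cells of a side, or of a side within a plate, divided by their total and scaled to 1000000 (CPM); log2 ratios are CD200-high over CD200-low. CPM is not divided by transcript length, so levels are compared between cells and not between genes. Total counts per cell ran from 869832 to 5301885 in CD200-high cells (median 1944373) and from 507713 to 3209365 in CD200-low cells (median 1735476.5). The median number of genes with a count was 5968 and 5662, and the median share of mitochondrial counts 1.4% and 1.68%. Intervals are exact, at 95%, and hold the counting error alone, since reads of these libraries are not independent molecules and cells of a side share their source.

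The intensity that made the split is given as a description only. It ran from 2198 to 7834 in CD200-high cells (median 3675) and from 58 to 1372 in CD200-low cells (median 413). The cells nearest to the split were at 2198 and 2584 inside it and at 1372 and 1338 outside it, and no cell lay between 1372 and 2198. In both plates the sides were separate: CD200-high medians were 3550.5 in plate 1 and 3726 in plate 2, against CD200-low medians of 432 and 394.

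The mRNA of the sorted protein followed the label only in part. Cd200 (chr16:45382135-45409053, GRCm38) was counted in 21 of 21 CD200-high cells, from 5.35 to 1422 CPM with a median of 362, and in 13 of 18 CD200-low cells, from 0 to 1268 CPM with a median of 96.5. With every cell thinned to the same depth it was counted in 20 of 20 CD200-high and 11 of 15 CD200-low cells. The ranges overlapped almost fully. The summed level was 498 CPM (interval 491 to 504) in CD200-high cells and 174 CPM (interval 169 to 179) in CD200-low cells, 2.86-fold higher. Within plates it was 246 against 173 CPM in plate 1 and 835 against 174 CPM in plate 2, log2 ratios of 0.51 and 2.26, so the gene missed the call in plate 1. Inside the CD200-high side the intensity and the mRNA showed no common order (Spearman rho 0.03 over 21 cells), and inside the CD200-low side rho was 0.33 over 18 cells; these are descriptions over cells that share plates and sort.

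Over the transcriptome, bone matrix and mineralization genes were higher in CD200-high cells, and genes of CAR cells, of the blood stem cell niche and of the adipogenic program were lower. Of 12199 genes with enough counts, 934 (7.66%) were called higher and 1537 (12.6%) called lower in CD200-high cells. These shares depend on the scaling. Spp1 alone took 10.7% of all counts on the CD200-high side and 0.380% on the CD200-low side. The median log2 ratio over all genes was -0.26 as reported, and with TMM scaling, a trimmed mean that sets the bulk of genes level, it was 0.04, a shift of 0.31; 1325 genes were then called higher and 1105 lower. Size factors of DESeq2 shifted the median by 0.28 and gave 1291 and 1155 genes. As a share of all calls, those on the higher side were 37.8% as reported, 54.5% with TMM and 52.8% with DESeq2 scaling. Under both scalings the sign of a list median turned for 4 lists, which are named below, and for no other list. Without the cells with Cdh5 and the cell with most Dcn, 924 genes were called higher and 1611 lower, a check chosen after the data were seen.

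**Figure D1:**
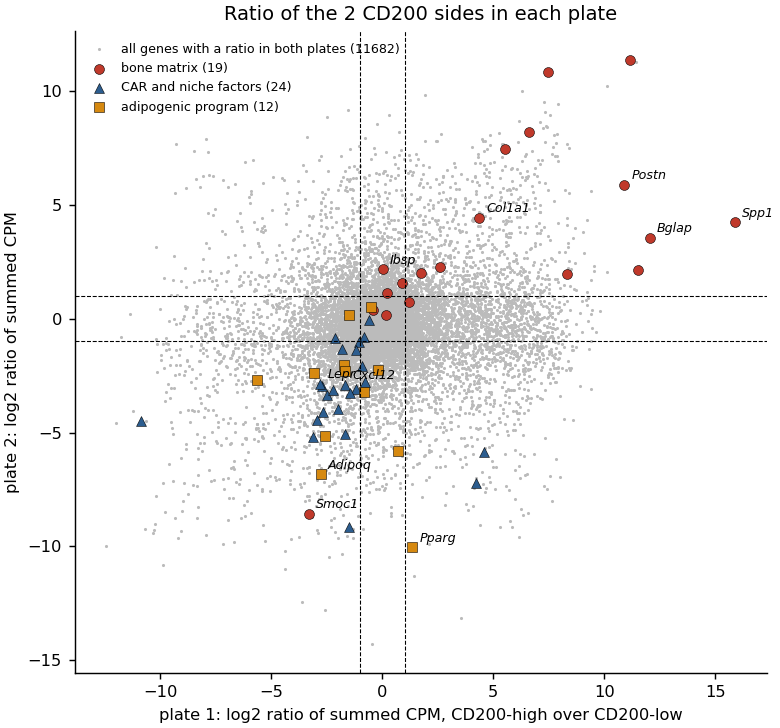
Log2 ratio of summed CPM, CD200-high over CD200-low, in plate 1 (x axis) and plate 2 (y axis); grey points are genes with a ratio in both plates, coloured symbols are members of 3 gene lists, and dashed lines mark 2-fold. Most bone matrix genes lie in the upper right corner, Spp1 at 15.89 and 4.22, and most CAR and niche genes in the lower left, Cxcl12 at -1.68 and -2.91.

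Genes of the bone matrix were higher in CD200-high cells. Of 20 genes of the list with enough counts, 12 were called higher and 1 lower, beside 7.66% and 12.6% of all genes, and the list median was 2.70 (4.93 in plate 1 and 2.17 in plate 2). It was 3.01 with TMM and 2.97 with DESeq2 scaling. A sum under 3 counts was raised to 3 before a ratio was taken, so that genes absent from a side stand at their lower bound. A sum mixes how many cells express a gene with how much RNA each holds, and fewer such cells and less RNA per cell cannot be told apart in it; values per cell are given beside it. Leaving out the CD200-low cell with most Spp1 gave a median of 4.59.

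Spp1 (chr5:104435118-104441050) encodes osteopontin, a phosphoprotein that binds mineral and integrins. It was counted in 20 of 21 CD200-high cells, from 0 to 330812 CPM with a median of 54291, and in 12 of 18 CD200-low cells, from 0 to 43191 CPM with a median of 3.13. The ranges overlapped: 13 of 21 CD200-high cells (61.9%, interval 38.4 to 81.9%) and 2 of 18 CD200-low cells (11.1%, interval 1.38 to 34.7%) were over 10000 CPM. Summed levels were 106602 and 3797 CPM, 28.1-fold higher (interval 27.9 to 28.2). By plate they were 97226 against 1.6 CPM in plate 1 and 119158 against 6394 CPM in plate 2. In plate 1, 3 of 10 CD200-high cells were over 10000 CPM, at 127189, 315750 and 330812 CPM, and 0 of 7 CD200-low cells. In plate 2, 10 of 11 CD200-high and 2 of 11 CD200-low cells were. The ratio in plate 2 rested on both CD200-low cells at 43191 and 22656 CPM, and without the cell at 43191 CPM the log2 ratio over both plates was 5.95, against 4.81 with it.

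The 250 bases before the RefSeq start sites of Spp1, of Ibsp, a bone matrix gene of the same chromosome, and of Cxcl12, the leading CAR gene, are shown as a bone matrix gene with a wide contrast, one with little contrast in plate 1, and a gene of the opposite direction. They were searched for the letters ACCACA, which RUNX factors bind, on either strand; capitals mark a match, and positions count back from the start site. On the plus strand of GRCm38.p6 the windows lie at chr5:104434861-104435110 (Spp1), chr5:104299037-104299286 (Ibsp) and chr6:117168285-117168534 (Cxcl12).
Spp1: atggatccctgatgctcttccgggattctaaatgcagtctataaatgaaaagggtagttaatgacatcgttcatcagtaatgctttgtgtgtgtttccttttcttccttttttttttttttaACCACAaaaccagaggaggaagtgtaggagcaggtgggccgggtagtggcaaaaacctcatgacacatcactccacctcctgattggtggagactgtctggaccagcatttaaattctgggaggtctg
Ibsp: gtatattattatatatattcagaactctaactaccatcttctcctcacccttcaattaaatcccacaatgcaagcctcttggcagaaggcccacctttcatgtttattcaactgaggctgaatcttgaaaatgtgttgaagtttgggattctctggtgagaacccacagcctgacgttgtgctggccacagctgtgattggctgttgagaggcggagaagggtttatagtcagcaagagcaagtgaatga
Cxcl12: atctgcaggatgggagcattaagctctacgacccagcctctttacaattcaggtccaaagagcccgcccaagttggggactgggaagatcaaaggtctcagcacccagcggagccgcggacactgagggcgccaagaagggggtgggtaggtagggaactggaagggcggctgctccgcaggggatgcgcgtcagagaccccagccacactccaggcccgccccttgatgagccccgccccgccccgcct
Spp1 held 1 match of ACCACA, starting at -128, while Ibsp and Cxcl12 held none. Over 32851 promoters of the RefSeq table, 14% held ACCACA, so a single match is common and is only a description of these letters in this window. Sparc, Igfbp4, Tmem176a and Tmem176b also held none.

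Col1a1 (chr11:94936224-94953042) encodes the alpha 1 chain of type I collagen, the main protein of bone. It ran from 0 to 14135 CPM in CD200-high cells (median 1529) and from 0 to 1271 CPM in CD200-low cells (median 85.2). Summed levels were 3564 and 185 CPM, 19.2-fold higher (interval 18.7 to 19.8), and the log2 ratios were 4.37 in plate 1 and 4.42 in plate 2. In plate 1, 73.5% of the CD200-high counts came from 1 cell, the one at intensity 2198; without it the levels there were 869.6 and 128 CPM, a log2 ratio of 2.76, and with it counted as CD200-low the ratio was -1.86. Its partner chain gene Col1a2 had 2634 and 743 CPM, a log2 ratio of 1.83, and was counted in all CD200-low cells at 175 to 2267 CPM.

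The non-collagen matrix genes divided into those of both sides and those with few counts on the CD200-low side. Ibsp, which encodes bone sialoprotein, was counted in all 21 CD200-high cells, from 96.3 to 25921.5 CPM, and in 17 of 18 CD200-low cells, from 0 to 10743 CPM. Its summed level in plate 1 was 4768 and 4715 CPM, a log2 ratio of 0.02, against 15707 and 3482 CPM in plate 2, where the log2 ratio was 2.17. Ibsp therefore was not called, and most CD200-low cells carried it at levels inside the CD200-high range. Sparc, which encodes osteonectin, was likewise counted in every cell, with medians of 8273 and 5218 CPM and log2 ratios of 0.87 and 1.54.

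Postn, which encodes the matrix protein periostin, had 657 and 9.05 CPM and was counted in 14 CD200-high and 2 CD200-low cells. Bglap, which encodes osteocalcin, a small mineral-binding protein of osteoblasts, had 1307 and 83 CPM and counts in 14 and 4 cells. Bglap2 (2065 and 290.5 CPM) and Bglap3 (96.9 and 18 CPM) were called higher too, but the 3 genes are near-identical copies whose reads the counting could split, and 1 cell gave 93.2% of the CD200-low counts of Bglap2. Ifitm5, a membrane protein of mineralizing osteoblasts, had 24416 counts in 10 CD200-high cells and none in 18 CD200-low cells, at 515 CPM and at least 5027-fold higher if the CD200-low side is given 3 counts in all; 1 cell gave 56.8% of those counts. Col11a1, a fibrillar collagen chain, had 47 and 7.92 CPM. Smoc1, a secreted calcium-binding protein, was the 1 gene of the list called lower, at 2.91 and 53.7 CPM with counts in 2 and 12 cells.

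**Figure D2:**
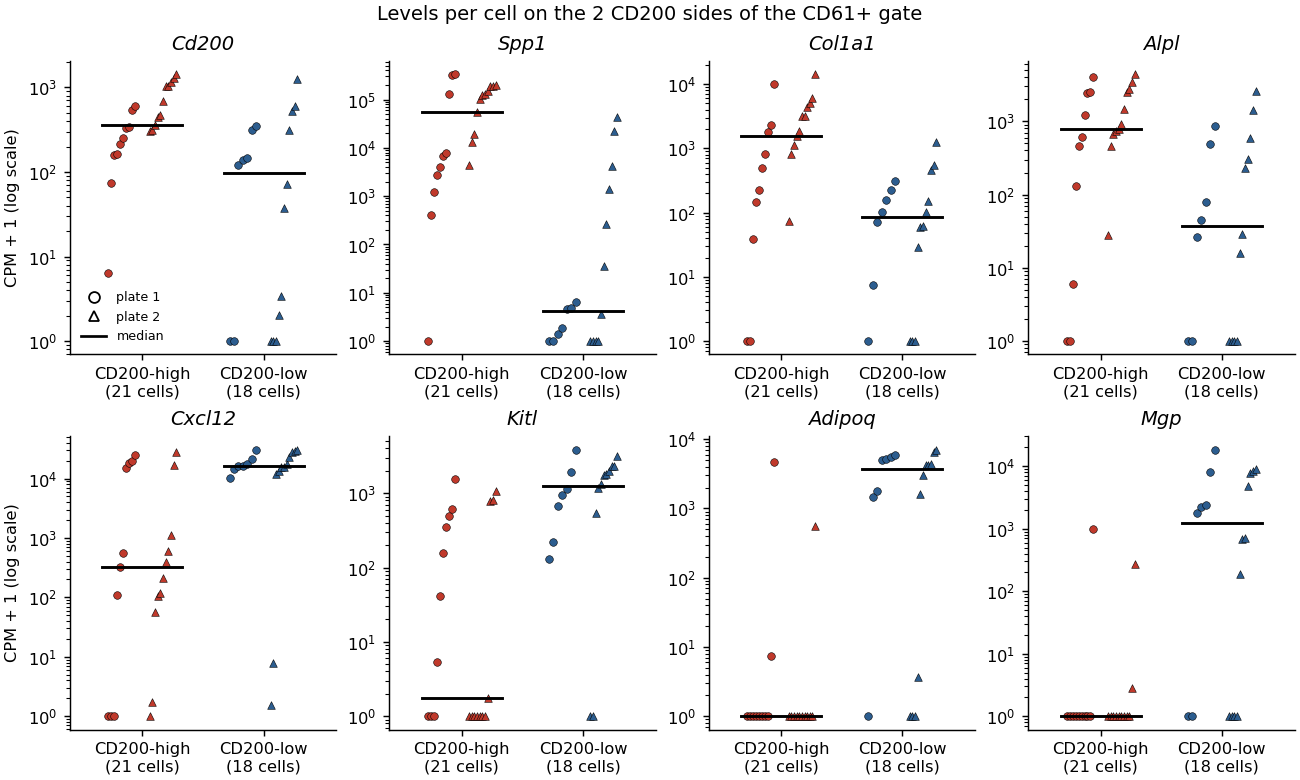
CPM + 1 per cell on a log axis for 8 genes, CD200-high cells (21) left and CD200-low cells (18) right, circles for plate 1, triangles for plate 2 and a bar at the median. Spp1 medians were 54291 and 3.13 CPM, Cxcl12 medians 318 and 16299.7 CPM, and each gene overlaps between the sides through some cells.

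For transcription factors of the osteoblast the list median had no sign common to the plates. Of 10 genes, 3 were called higher and 1 lower, beside 7.66% and 12.6% of all genes. The median of 0.31 was -0.12 in plate 1 and 0.96 in plate 2. Runx2, the factor required for osteoblast formation, had 219.9 and 179 CPM with counts in 19 of 21 and 15 of 18 cells, and its log2 ratios of -0.24 and 0.81 lay on both sides of 0. Sp7, or osterix, which acts after Runx2, had medians of 41.1 and 0 CPM and log2 ratios of 2.02 and 0.19. Dlx5, a homeobox factor upstream of Runx2 and Sp7, had log2 ratios of -0.24 and -0.09, and Atf4, a factor of amino acid supply for collagen synthesis, had 155 and 148 CPM. Among the factors called higher were Dlx3, with 1318 counts in 10 CD200-high cells and none on the other side, and Twist1, at 24.8 and 4.1 CPM. Msx1, a homeobox factor of progenitors, was called lower at 3.35 and 24.9 CPM, with its CD200-high counts from a single cell.

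Among enzymes and transporters of mineralization 4 of 8 genes were called higher, beside 7.66% of all genes, and none lower, with a median of 2.03. Alpl encodes the alkaline phosphatase that splits pyrophosphate. It ran from 0 to 4366 CPM in CD200-high cells (median 793) and from 0 to 2569 CPM in CD200-low cells (median 35.9), with summed levels of 1301 and 349 CPM, 3.73-fold higher (interval 3.65 to 3.81). Its log2 ratio was 1.98 in plate 1 and 1.95 in plate 2, with overlap between single cells. Without the cell at intensity 2198 it was 1.51 in plate 1, and with that cell counted as CD200-low -0.22. Enpp1, which makes pyrophosphate, had 153 and 34.3 CPM, and Ank, which carries pyrophosphate out of the cell, 166 and 16.8 CPM with counts in 11 and 2 cells. Enpp6, a choline phosphodiesterase of the same family as Enpp1, had 155 and 33 CPM.

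Osteocyte genes were sparse. Of 6 genes with enough counts 3 were called higher, beside 7.66% of all genes. Dmp1, a matrix phosphoprotein of osteocytes, had 15250 counts in 10 CD200-high cells and 22 in 2 CD200-low cells, at 322 and 0.751 CPM, but 1 CD200-high cell gave 57.2% of its counts. Fam20c, the kinase that phosphorylates secreted matrix proteins, had 144 and 28 CPM, and Mepe, another matrix phosphoprotein, 914 counts in 5 CD200-high cells and none in CD200-low cells. Irx5, a homeobox factor (24.9 and 55.9 CPM), and Cd44, the hyaluronan receptor (16.7 and 24.6 CPM), were not called.

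In the collagen processing and secretory list, 5 of 28 genes were called higher and 2 lower, beside 7.66% and 12.6% of all genes. Its median was -0.11, beside -0.26 over all genes, and 0.20 with TMM scaling. The called genes were particular steps of the pathway. Creb3l1, or OASIS, a membrane-bound factor that drives collagen gene transcription, had 136 and 8.64 CPM, and Kdelr3, a retrieval receptor of the secretory pathway, 240.3 and 33.1 CPM. Plod2, which hydroxylates collagen lysines, had 97 and 32 CPM and Fkbp10, its partner isomerase, 304 and 129 CPM, while Loxl4, a lysyl oxidase, was counted in 7 CD200-high and 0 CD200-low cells. P4ha1, a prolyl hydroxylase chain, was called lower at 32.9 and 81 CPM, as was the procollagen peptidase gene Adamts14. The 4 most abundant genes of the list missed the call. Serpinh1, the collagen chaperone HSP47, had 1718 and 1089 CPM, a log2 ratio of 0.66. P4hb had 818 and 990 CPM, Pcolce 893 and 685 CPM, and Ppib 845 and 604 CPM, at log2 ratios of -0.28, 0.38 and 0.48.

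The CD200-high cell with the lowest intensity weighed on the bone contrast. This cell of plate 1, at an intensity of 2198 and the deepest of its side at 5301885 counts, carried 9959 CPM of Col1a1, and without it 10 bone matrix genes were called higher. Its Dcn, at 2878 CPM, was the highest of its side, so it is one of the cells with markers of other cell types described below. When it was instead counted with CD200-low, as a split at 2500 does, 3 bone matrix genes were called higher and the list median was 0.70. Of the mineralization list 3 genes were then called higher, with a median of 0.82, and of the CAR and niche factors described below 10 were called lower. A split at 1000 moved both CD200-low cells nearest the split to CD200-high and gave 15 genes called higher and a median of 2.76.

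Beyond the lists, the genes with the largest ratio common to both plates were taken by a fixed rule of size. The 12 higher genes had log2 ratios of 4.45 to 12.45; leaving out 1 cell moved 6 of them by over 1.5 times, the smallest fold so left was 16.3, and being picked for this gap their direction is no independent evidence. Car3, a carbonic anhydrase, was counted in 14 of 21 CD200-high cells, up to 3231 CPM with a median of 116, and in 0 of 18 CD200-low cells, which allows a share of up to 16.7% of cells with a count by the rule of 3 cells in 18 (exact upper limit 18.5%). Thinned to equal depth it was counted in 14 of 20 and 0 of 15 cells. Its sum of 574 CPM was at least 5599.9-fold higher than 3 counts over the CD200-low side would give. The CD200-high cell at intensity 2198 carried the highest level of Car3 and 63% of its CD200-high counts. With that cell left out the log2 ratio was 11.19, still higher in CD200-high cells, and with it counted as CD200-low the ratio was -1.05. Aqp1, a water channel, had 302 and 0.171 CPM with counts in 14 and 2 cells.

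Vdr encodes the vitamin D receptor, through which calcitriol acts on osteoblast genes that include Spp1 and Bglap. It ran from 0 to 1099.6 CPM in CD200-high cells (median 249, counted in 18 of 21) and from 0 to 118 CPM in CD200-low cells (median 0, counted in 5 of 18). The summed levels of 344 and 14.9 CPM differed 23.1-fold (interval 21 to 25.5), with log2 ratios of 6.06 and 4.47 in the plates. Cpe, carboxypeptidase E, had 261 and 4.68 CPM, and all of its CD200-low counts came from 1 of 18 cells. Bmp3, a ligand that opposes bone-forming BMPs, had 2966 counts in 14 CD200-high cells and none in CD200-low cells, as did Kcnma1, the large-conductance potassium channel, with 2374 counts in 12 cells. Ccnd1, which encodes the cell cycle regulator cyclin D1, had 63.5 and 0.0342 CPM, with 1 count in 1 CD200-low cell. Its ratio was 1858 (interval 333 to 73429) from the counts as they stood, and 619 with the CD200-low sum raised to 3. With the cell at intensity 2198 counted as CD200-low the log2 ratio of Ccnd1 was 2.94, against 9.27 with the raised sum. The non-fibrillar collagen genes Col22a1 (35.6 and 0.137 CPM) and Col25a1 (21.1 and 0.0683 CPM) were counted in 15 and 14 CD200-high cells, against 3 and 2 CD200-low cells. The other named genes were Rtn2, an endoplasmic reticulum protein (25 and 0.41 CPM), Krr1, a ribosome assembly factor (21.6 and 0.922 CPM), and Vti1a, a vesicle fusion protein (35.2 and 1.61 CPM), of which Rtn2 and Krr1 had medians of only 0.392 and 0.29 CPM in CD200-high cells.

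Genes of CAR cells and niche factors were the counterpart. Of 24 genes 17 were called lower in CD200-high cells and none higher, beside 12.6% and 7.66% of all genes, and the list median was -2.09 (-1.69 in plate 1 and -3.13 in plate 2). It was -1.78 with TMM scaling, where 13 genes were called lower. Cxcl12 (chr6:117168535-117181367), the chemokine that retains blood stem cells, ran from 0 to 28461 CPM in CD200-high cells (median 318) and from 0.526 to 30804 CPM in CD200-low cells (median 16299.7). The ranges overlapped: 6 of 21 CD200-high cells (28.6%, interval 11.3 to 52.2%) and 16 of 18 CD200-low cells (88.9%, interval 65.3 to 98.6%) were over 10000 CPM. Summed levels were 4565 and 18884 CPM, 4.14-fold lower (interval 4.12 to 4.16), with 6148 against 19665 CPM in plate 1 and 2446 against 18350.1 CPM in plate 2.

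Among the secreted niche factors, Kitl, which encodes stem cell factor, had 206 and 1373 CPM, with medians of 0.751 and 1249.5. Il7, the growth factor of B cell progenitors, had 27.1 and 104 CPM, and Angpt1, the ligand of the Tie2 receptor, 9.72 and 58.1 CPM with counts in 5 and 13 cells. Igfbp5, a binding protein of insulin-like growth factors, had 172 and 1078 CPM, and Gas6, a ligand of TAM receptors, 305 and 1907 CPM. Igfbp4 had the same direction (2644 and 6786 CPM) but a log2 ratio of -0.92 in plate 1, just short of the call.

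The receptor and factor genes that define CAR cells went the same way. Lepr, the leptin receptor, ran up to 684 CPM in CD200-high cells (median 54.7) and up to 1410.1 CPM in CD200-low cells (median 570.2), with log2 ratios of -2.80 and -2.85. Foxc1, a forkhead factor needed for CAR cells, had 12.4 and 52.8 CPM, Ebf1 83.4 and 254 CPM, and Ebf3, the factor that keeps CAR cells from turning osteogenic, 10.4 and 109 CPM with counts in 7 and 15 cells. Ebf1 was nonetheless counted in 20 of 21 CD200-high cells. Tmem176b and Tmem176a, paired membrane proteins, were called lower with small contrasts, at medians of 2130.1 and 5278 CPM and of 1386 and 3007 CPM, and Tmem176a was just past the call in each plate (log2 ratios of -1.05 and -1.05) and just short of 2-fold over both (-0.99).

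In the adipogenic program 6 of 12 genes were called lower, beside 12.6% of all genes, and none higher, with a median of -1.49. Adipoq, which encodes adiponectin, was counted in 3 of 21 CD200-high cells (14.3%, interval 3.05 to 36.3%) and 14 of 18 CD200-low cells (77.8%, interval 52.4 to 93.6%), and after thinning in 2 of 20 and 12 of 15 cells. Its highest levels were 4672 and 7084 CPM, and the summed levels 250 and 2780.4 CPM, 11.1-fold lower; 1 cell gave 95.8% of the CD200-high counts, and without it the log2 ratio was -7.99 in place of -3.48. Lpl, lipoprotein lipase, had 251 and 2119 CPM and medians of 1.17 and 1327. Agt, angiotensinogen, had 169.8 and 1136 CPM, and Apoe, apolipoprotein E, 1361 and 3597 CPM with a log2 ratio of -0.81 in plate 1 and so no call. Cebpa, a C/EBP factor of adipocyte formation, had 52.8 and 155 CPM. Pparg, the factor it acts with, stood level at 129.6 and 129 CPM, but 90.3% of its CD200-high counts came from 1 cell, and it was counted in 3 and 10 cells.

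The 12 lower genes with the largest ratio common to both plates had log2 ratios of -5.13 to -11.08; leaving out 1 cell moved 7 of them by over 1.5 times and turned the sign of 0. Mgp, matrix Gla protein, an inhibitor of calcification, ran up to 1003 CPM in CD200-high cells, of which 3 had a count, and up to 18538 CPM in CD200-low cells, of which 12 did (median 1234). Its summed levels were 47.6 and 3399.6 CPM, 71.4-fold lower (interval 68.5 to 74.4), with log2 ratios of -6.18 and -6.22. Il1rn, the antagonist of the interleukin 1 receptor, had 0.211 and 457 CPM, and C3, the central complement component, 3.44 and 120.4 CPM with counts in 1 and 11 cells. Fmo2, a flavin monooxygenase, had no count in 21 CD200-high cells, which allows a share of up to 14.3% by the same rule (exact upper limit 16.1%), and 3428 counts in 13 CD200-low cells, at least 1850.1-fold lower with 3 counts put for the CD200-high side. Susd2, a membrane protein, was likewise counted in 0 and 11 cells, at least 1503-fold lower.

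Mdga1, a GPI-anchored adhesion protein, had 1 count in CD200-high cells and 66.2 CPM in CD200-low cells. It was 3139-fold lower (interval 563 to 124063) from the counts as they stood, and 1046-fold lower with the CD200-high sum raised to 3. Prelp, a leucine-rich matrix proteoglycan, had 3.94 and 187 CPM, Agmo, which cleaves ether lipids, 0.232 and 25 CPM, and Slc12a7, a potassium-chloride cotransporter, 0.654 and 23.9 CPM. The other 3 are uncertain in their counts: Plac9b (63.4 and 3654 CPM) and Serpina3g (27.7 and 1299 CPM) have near-identical relatives, and Ccpg1os (0.274 and 24.7 CPM) is transcribed opposite another gene, which reads without strand cannot tell apart.

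**Figure D3:**
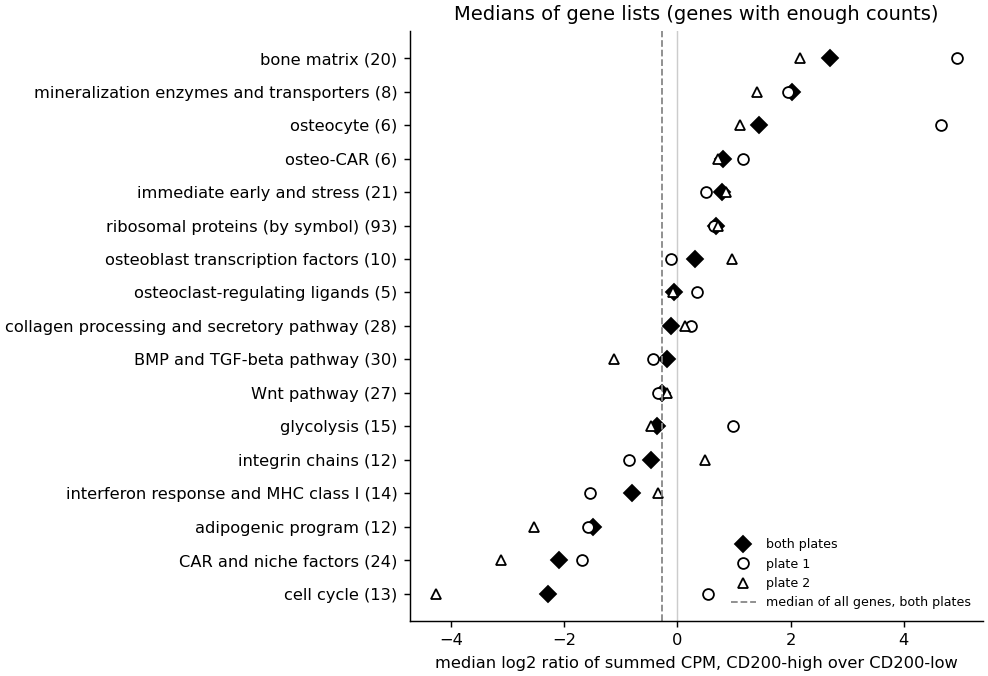
Median log2 ratio of summed CPM, CD200-high over CD200-low, of each gene list over both plates (filled diamonds), in plate 1 (circles) and in plate 2 (triangles); the dashed line is the median of all genes, -0.26. Bone matrix, at 2.70, and CAR and niche factors, at -2.09, keep their sign in both plates, while cell cycle and glycolysis do not.

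Read cell by cell, the CD200-high side held Spp1-rich and Cxcl12-rich cells, and most cells of the CD200-low side were Cxcl12-rich. The mean log2(CPM + 1) of the bone matrix list ran from 1.12 to 8.05 in CD200-high cells (median 6.53) and from 2.30 to 6.27 in CD200-low cells (median 3.19). That of the CAR and niche list ran from 1.98 to 7.65 (median 3.55) and from 1.34 to 9.11 (median 8.28). Of the 21 CD200-high cells 13 had over 10000 CPM of Spp1, 6 had over 10000 CPM of Cxcl12, 1 had both and 3 had neither. Of the 18 CD200-low cells 2 had over 10000 CPM of Spp1, 16 of Cxcl12, 1 of both and 1 of neither.

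The Cxcl12-rich cells of the CD200-high side also carried some osteogenic genes. All 6 had over 500 CPM of Alpl and over 1000 CPM of Spp1, and 4 had over 3 counts of Bglap. Among the 16 Cxcl12-rich CD200-low cells, 4, 3 and 3 did. The Alpl and Spp1 cut-offs lie under the lowest of the 6 cells, at 617 and 1220 CPM, so they do not test a difference. Alpl was counted at any level in all 6 and in 12 of the 16. Ibsp showed no such order, at 622 to 6714 CPM in the 6 and 84.9 to 10743 CPM in the 16. Adipoq was over 3 counts in 3 of the 6 and in 13 of the 16, and Mgp was counted in 0 of the 6 and 11 of the 16. These cells were singled out by their measured Cxcl12, so the values are a description, and 4 of the 6 lay in plate 1, where they were 4 of the 10 CD200-high cells. Over whole sides, 2 of 6 osteo-CAR genes were called higher, beside 7.66% of all genes, with a list median of 0.80. Serpine2, a secreted protease inhibitor, was called at medians of 12541 and 3818 CPM. Wif1, a Wnt inhibitor, had log2 ratios of 2.05 and 0.98, just short of the call in plate 2, while Limch1 (0.96 and -0.09) and Cp (-1.07 and 0.45) had no common direction.

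**Figure D4:**
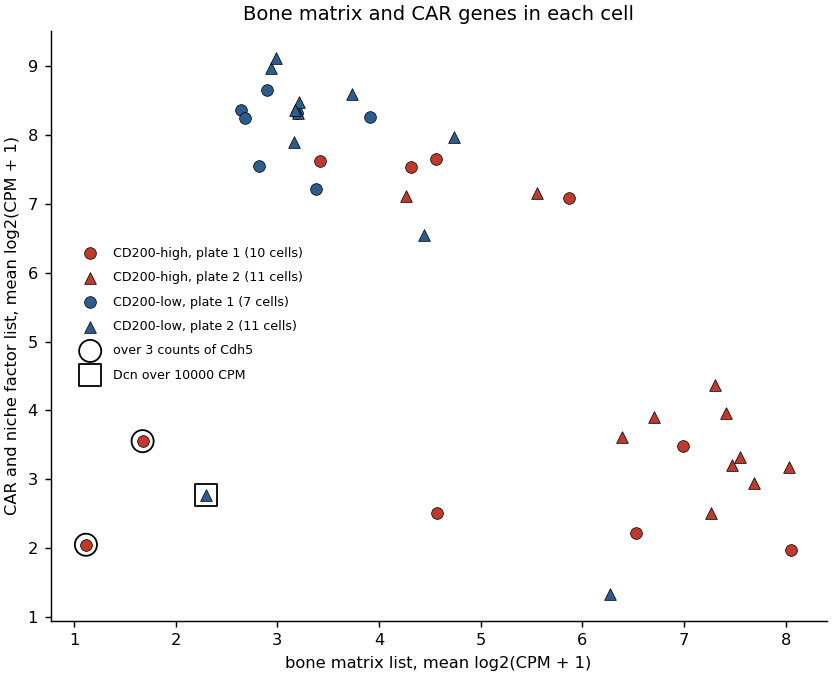
Mean log2(CPM + 1) of the bone matrix list (x axis) and of the CAR and niche factor list (y axis) in each of 39 cells, CD200-high in red and CD200-low in blue, with plates by symbol; rings mark cells with over 3 counts of Cdh5 and the square the cell with Dcn over 10000 CPM. Most CD200-low cells lie at the upper left, where CAR means reach 9.11, and CD200-high cells spread from there to the lower right, where bone matrix means reach 8.05.

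Wnt signalling, which drives osteoblast formation, gave calls in both directions, 6 of 27 higher and 6 lower, beside 7.66% and 12.6% of all genes. The list median was -0.27, and 0.04 with TMM scaling. The R-spondin and secreted frizzled-related genes with a call were on the lower side. Rspo2 and Rspo3, R-spondins that raise Wnt signalling, had 3.8 and 74.3 CPM and 27.3 and 102 CPM. The secreted frizzled-related genes Sfrp1 (18.5 and 51.3 CPM), Sfrp2 (0.0422 and 80.9 CPM) and Sfrp4 (343 and 877 CPM) and the receptor gene Fzd1 (15 and 64.6 CPM) completed the lower calls. On the higher side, Ctnnb1, which encodes beta-catenin, ran from 0 to 689 CPM (median 284) in CD200-high and from 0 to 224 CPM (median 95.8) in CD200-low cells. Its log2 ratios were 1.49 and 1.48 in the plates, the ratio in plate 1 being 1.23 without the cell at intensity 2198 and 0.13 with it counted as CD200-low. Lrp4, a receptor of the bone Wnt inhibitor sclerostin, was counted in all 21 CD200-high cells, at 57.8 and 7.72 CPM, and Kremen1, a receptor of DKK1, had 15.7 and 1.26 CPM. The Wnt antagonist Dkk1 (17.5 and 0.41 CPM), the factor gene Tcf7 (7.3 and 0.307 CPM) and the R-spondin receptor gene Lgr6 (6.98 and 0.342 CPM) were counted in 5, 4 and 7 CD200-high and 6, 1 and 4 CD200-low cells. Tcf7l2 was not called, with 358 and 536 CPM.

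In the BMP and TGF-beta pathway, whose ligands induce bone, 2 of 30 genes were called higher and 11 lower. The shares over all genes were 7.66% and 12.6%, and the list median was -0.19, or 0.12 with TMM scaling. The ligand genes Bmp4 (92.1 and 655 CPM), Bmp5 (5.19 and 29.2 CPM) and Bmp6 (20.9 and 222 CPM) were called lower. So were 3 secreted inhibitors: Chrdl1, chordin-like 1 (142 and 828 CPM), Grem1, gremlin (14.1 and 112 CPM), and Fst, follistatin (21.2 and 285 CPM). Bmp6 was counted in 6 of 21 and 16 of 18 cells. Smad3, a signal carrier of TGF-beta, was called higher at 22.9 and 8.81 CPM, and the target genes Id3 (3089 and 2603 CPM) and Id2 (369.7 and 381 CPM) were not called.

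Of the ligands that act on osteoclasts, Il34, a ligand of the CSF1 receptor, was called lower: it was counted in 1 of 21 CD200-high cells and 14 of 18 CD200-low cells (median 358 CPM), at 5.74 and 265.5 CPM. Csf1, the main ligand of that receptor, was counted in all 39 cells, at medians of 261 and 368 CPM, and Tnfsf11, which encodes RANKL, had 61 and 63.8 CPM. Neither was called, and the list median was -0.07, or 0.24 with TMM scaling. Sema3a, a semaphorin that restrains osteoclasts, was called higher with 789 counts in 9 CD200-high cells and 2 in 1 CD200-low cells. The receptor genes of CD200 gave no level to describe, since of 3 genes of that list in the table the others had few counts, such as Cd200r2 at 0.612 and 1.61 CPM.

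In the immediate early and stress list 3 of 21 genes were called higher, beside 7.66% of all genes, and none lower, with a median of 0.79. With TMM scaling 6 were called higher, where calls of this direction over all genes rose from 934 to 1325. Without the cells with markers of other cell types 7 of 19 were, beside 875 genes in all. With the cell at intensity 2198 counted as CD200-low 2 were, beside 753 genes in all. Hspa1a, an inducible heat shock protein with a near-identical neighbour gene, was counted in 19 of 21 and 4 of 18 cells at 740.5 and 39.8 CPM, and Ier3 had 312 and 53.5 CPM, while Atf3 drew 83.7% of its CD200-high counts from 1 cell. Fos (medians 2332 and 21.8 CPM), Jun (308 and 0.698), Junb (612 and 283) and Egr1 (251 and 13.8), all transcription factors of the first response to stimulation, were not called, Fos at summed levels of 3999 and 1612 CPM. The part of these genes in the other contrasts was not tested.

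In the interferon and MHC class I list 2 of 14 genes were called lower and none higher, a share near the 12.6% of all genes called lower, with a median of -0.80. Thinned to equal depth, 6 of 13 were called lower, and with TMM scaling 1 of 14. H2-K1, a class I heavy chain, had medians of 1119.9 and 2721 CPM and log2 ratios of -1.09 and -1.28, though class I genes resemble each other and can share reads, and Tap1, the peptide transporter, had 15.7 and 82.6 CPM. The related H2-D1 (-0.99), B2m (-0.59) and Ifitm3 (-1.11) had log2 ratios below 0 without a call. Among 15 glycolysis genes 1 was called, Ldha, which makes lactate from pyruvate and was higher, beside 7.66% of all genes called higher. Ldha ranged from 104 to 1623 CPM in CD200-high cells (median 803) and from 0 to 796 CPM in CD200-low cells (median 261). Gapdh (-0.37), Aldoa (-0.76) and Eno1 (0.27) had log2 ratios of either sign. Of 93 ribosomal protein genes 4 were called higher and 1 lower, beside 7.66% and 12.6% of all genes. Their median of 0.68 was 0.64 in plate 1 and 0.71 in plate 2.

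Cell cycle genes had no direction common to the plates, with a list median of 0.55 in plate 1 and -4.27 in plate 2. All CD200-low counts of Cdk1, the mitotic kinase, came from 1 cell at 664 CPM, and Tyms, thymidylate synthase, had 13 and 77.5 CPM, while Cenpf, a centromere protein, had its counts in 3 and 2 cells and a log2 ratio of 6.97, which was -1.74 with the cell at intensity 2198 counted as CD200-low. The dye intensity, from a channel that the sort record names for the cell cycle, differed in spread: it ran from 48184 to 82011 in CD200-high cells (median 66848) and from 54602 to 129855 in CD200-low cells (median 60767). Of the 18 CD200-low cells 7, of which 3 in plate 1 and 4 in plate 2, lay at 89427 or more, above every CD200-high cell, and the other CD200-low cells lay at 77835 or less.

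Some of the other surface channels differed between the sides, and their part in the RNA contrast was not tested. CD45 intensity had a median of 1075 in CD200-high and 379.5 in CD200-low cells, with ranges of 549 to 1826 and 51 to 1617. Its gene Ptprc had at most 2 counts in any of the 39 cells, and 3 cells of each side had a count. Over the 18 CD200-low cells CD45 and CD200 intensity had a Spearman rho of 0.77, and over the 21 CD200-high cells one of -0.09. The Ter119/CD41 channel had medians of 1238 and 2167, CD61 2265 and 1884.5, CD51, the integrin alpha V chain, 374 and 142.5, and CD71 462 and 474. VCAM1 had medians of 875 and 600 in plate 1 but 668 and 686 in plate 2, and forward scatter, a measure of size, 146631.5 and 125624 in plate 1 but 148265 and 148309 in plate 2.

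The genes of the sorted proteins followed those orders only in part. Itga2b, the gene of CD41, had the order of the Ter119/CD41 channel over both plates, at 0.886 and 5.77 CPM. Its log2 ratios were 2.62 and -6.04 in the plates, and 1 cell gave 99.4% of its CD200-low counts. Tfrc, the gene of CD71, had no count on either side. Itgb3, the gene of CD61, had 13.7 and 8.13 CPM but log2 ratios of -1.29 in plate 1 and 2.38 in plate 2, with counts in 13 and 5 cells. Itgav, the gene of CD51, was on the lower side in both plates, at medians of 89 and 220.5 CPM and log2 ratios of -2.90 and -0.59, while CD51 intensity was on the higher side. Vcam1 had medians of 121 and 872 CPM and log2 ratios of -0.79 and -2.80. Of 12 integrin genes 2 were called, both higher, beside 7.66% of all genes called higher. Itgb5 had 57.1 and 20.5 CPM, and Itga10, a collagen receptor chain, had 211 counts in 11 CD200-high cells and none in CD200-low cells. The abundant Itgb1 (-0.67), Itga1 (-1.88) and Itga11 (-0.74) had log2 ratios below 0 and missed the call.

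Markers of other cell types were present in single cells. Cdh5, the cadherin that defines endothelium, had over 3 counts in 2 CD200-high cells and in 0 CD200-low cells. Both CD200-high cells were of plate 1, reaching 277 CPM. The summed endothelial list reached 21130.3 CPM in CD200-high cells (median 0.751) and 4303 CPM in CD200-low cells (median 137). Of its 5 genes 1 was called higher, beside 7.66% of all genes. The median of the endothelial list was 3.97, and -1.86 without the Cdh5 cells and the cell with most Dcn. Dcn, a fibroblast proteoglycan, was at 1000 CPM or more in 3 CD200-high and 4 CD200-low cells and reached 2878 and 13127 CPM. The fibroblast list had 1 of 13 genes called higher and 4 lower, beside 7.66% and 12.6% of all genes. Lum was the higher, at 378 and 94.9 CPM. Among the lower were Fbn1 at 19.4 and 198 CPM and Pi16, of whose CD200-low counts 99.9% came from the cell with most Dcn. Without the cells with markers of other types, 4 of 11 were called higher and 3 lower, and the median was -0.26 in place of -1.72. The list's summed level ran from 539 to 12061 CPM in CD200-high cells and from 463 to 100113 CPM in CD200-low cells. Without the cells that held such markers, 5 CD200-high and 4 CD200-low, the bone matrix median was 4.18 and the CAR and niche median -1.80. The CD200-low cells left out included the cell at 43191 CPM of Spp1, which had 6.85 CPM of Cxcl12. They also included the cell at 22656 CPM of Spp1 and the cell at 0.526 CPM of Cxcl12. The remaining cell had 17409 CPM of Cxcl12 and 0.874 CPM of Spp1, like most of its side. Of the CD200-high cells left out, the 2 with Cdh5 had bone matrix means of 1.12 and 1.67. The 3 with most Dcn had means of 7.31, 8.04 and 8.05, above the median of that side. The filter thus took out cells that went against the contrasts and cells that carried them, so these medians do not test the contrasts.

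As a description of likeness, 4717 genes counted in at least 50% of the 39 cells were ranked by their Spearman rho with CD200 intensity over these cells, which share plates, depth and the split itself. The highest were Spp1 (0.76), Vdr (0.75), Mef2c (0.71), a factor that controls sclerostin in osteocytes, Pak1 (0.70), a kinase of the actin skeleton, and Cyfip2 (0.68), a part of the WAVE complex. Within the 21 CD200-high cells alone, rho was 0.62 for Spp1 and 0.56 for Vdr, and within the 18 CD200-low cells 0.12 and 0.40. At the other end, chosen after the values were seen, stood Fstl1 (-0.80), a secreted glycoprotein, and the basement membrane collagen genes Col4a2 (-0.74) and Col4a1 (-0.72). Cxcl12 was at -0.49 over all cells, with -0.40 inside CD200-high and 0.22 inside CD200-low cells.

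**Figure D5:**
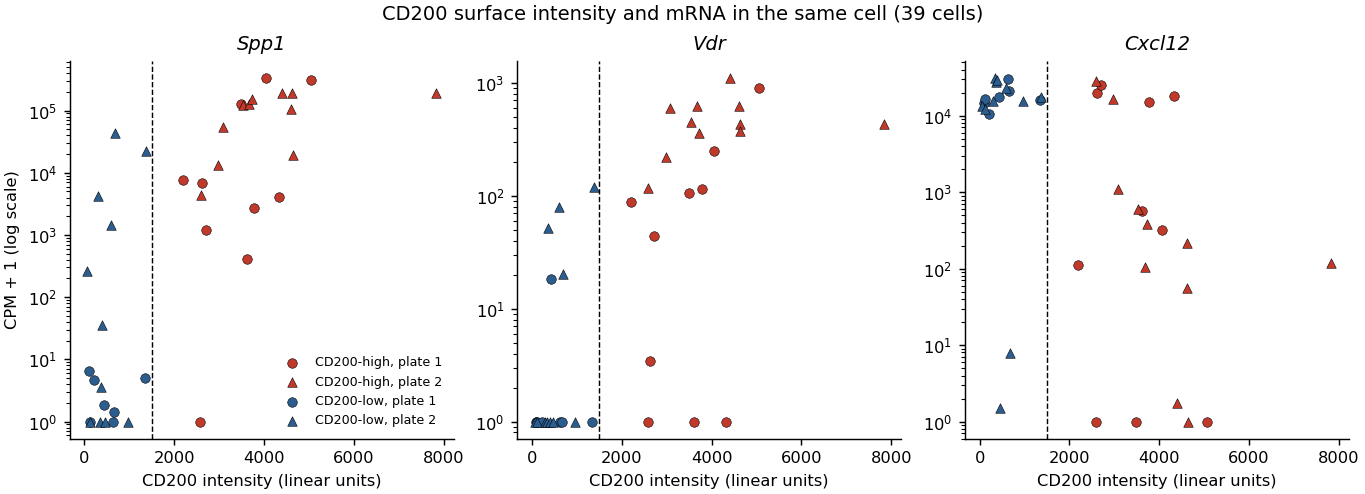
CD200 intensity at the sort (x axis, linear units) against CPM + 1 (log axis) of Spp1, Vdr and Cxcl12 in the same 39 cells, CD200-high in red and CD200-low in blue, with plates by symbol and a dashed line at 1500. All CD200-high cells lie at 2198 or more and all CD200-low cells at 1372 or less, and over the 39 cells Spearman rho was 0.76 for Spp1 and -0.49 for Cxcl12.

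Few cells outside the gate reached the same CD200 intensity. Of the 40 CD61- cells 3 were at 1500 or more, at 2128, 2961 and 3456. They held 9297, 159690 and 229244 CPM of Spp1 in this order, 8396, 450.0 and 171 CPM of Cxcl12, and 4173, 4650 and 902 CPM of Alpl. Of the other 37 CD61- cells 1 was over 10000 CPM of Spp1, with a median of 1.35 CPM, and 31 were over 10000 CPM of Cxcl12, with a median of 25252 CPM. The summed CD61- gate, with the 3 cells at 1500 or more included, lay nearer to the CD200-low than to the CD200-high cells for the leading genes. It held 12267 CPM of Spp1, 111 of Col1a1, 31.3 of Vdr, 21914 of Cxcl12, 2504 of Adipoq and 3302 of Mgp. Its Spp1 level is therefore not that of the other 37 cells. Cd200 itself was at 284 CPM. Of the 9 VCAM1+ cells 2 were at 1500 or more: 1 at 1818, with 16619 CPM of Dcn and no count of Spp1 or Cd200, and 1 at 6042, with 297552 CPM of Bglap and 25753 CPM of Col1a1.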

How the data were processed

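Expression was measured in 91 single cells by Smart-seq2, and surface intensity was recorded at the sort. The authors deposited an estimated count per gene and cell, not normalised; the values of its 16580 genes were all whole. Per the submitters' processing notes, kallisto 0.43.0, R 3.5.1 and build mm10 were used; the sources used here do not give the kallisto annotation. The authors also deposited the sort record, whose linear intensity per channel was used as it stood; 37 columns of that table were not used. Groups came from gate labels and deposited CD200 intensity.

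Counts were summed per side and plate and scaled to CPM. Genes entered with at least 10 counts and a count in at least 5 of 39 cells; sums under 3 counts were raised to 3 before ratios, and genes with 3 or fewer on each side got none. Intervals were exact: Poisson for sums, binomial for ratios, Clopper-Pearson for shares. Named genes were, per direction, the 12 called genes with the largest ratio common to both plates (the smaller of summed and mean per-cell CPM, with a count in 50% or more of that side's cells in each plate, without mitochondrial, ribosomal, predicted, Rik and pseudogene symbols), the 4 marker genes, genes of sorted proteins, up to 4 most abundant genes per list, and the 5 genes with the highest rho; other called list members were named after their values were seen. The members, the 31 lists and the split were chosen with earlier results of these data known. Tried besides were scaling by TMM from edgeR 4.0.16 and by size factors from DESeq2 1.42.0, both in R 4.3.3, mean per-cell CPM, no filter, 4-fold calls, splits at 1000 and 2500, pulse height, single plates, leaving out each cell or the cells with markers of other types, and thinning to 915548 counts, which left out 1 CD200-high and 3 CD200-low cells. No doublet caller was run and no cell was removed for quality; no pair of the 39 count columns was identical. Positions came from GENCODE M21 (GRCm38), where 16529 symbols matched, and promoters from RefSeq; Col1a1 had no entry there. The steps were tested on simulated data. Sums and ratios were made in Python 3.11.15 with pandas 2.3.3 and numpy 2.4.6, intervals with scipy 1.17.1, and plots with matplotlib 3.10.9.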

Additional observations from a re-analysis of the deposited data

How the results depend on the processing

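Of 26 recomputed counts of calls 24 stayed within 1.5 times; calls at 4-fold numbered 448 higher and 598 lower. Leaving out 1 cell gave 863 to 1004 higher and 1466 to 1644 lower, bone matrix medians of 2.22 to 4.59 and CAR and niche medians of -2.46 to -1.92. The bone matrix median was 0.70 with the split at 2500, which moved 1 cell, and 4.93 in plate 1 alone; the CAR and niche median was -3.13 in plate 2 alone. Without a filter, genes called higher numbered 1144 and genes called lower 1699. Of 15 list medians at least 1 log2 unit from 0, 5 changed sign in some setting: the median of the CD200 and its receptors list (0.19 in plate 2, -1.41 to 0.25 without 1 cell), the median of the cell cycle list (0.55 in plate 1, -2.55 to 0.80 without 1 cell), the median of the endothelial list (-1.84 without cells with markers of other types, -1.86 without the Cdh5 cells and the cell with most Dcn, -3.24 in plate 2), the median of the macrophage and monocyte list (-1.09 without cells with markers of other types) and the median of the osteoclast list (-0.020 in plate 1). Of 12 medians nearer to 0, 9 changed sign in some setting, among them glycolysis, integrin chains, osteoblast transcription factors and collagen processing. With the split at 2500, Car3 was at -1.05 and Cenpf at -1.74. The causes were not tested. No paired analysis was possible because the labels number no replicates and no test was made; both plates hold both sides, and each call compares them within each plate. Depth limits genes with few counts: a gene at 0 is bounded only by the floor of 3 counts.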

Other observations

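Some markers of other cell types also differed between the sides. Col2a1, the collagen of cartilage, was counted in 12 CD200-high and 0 CD200-low cells at 85.9 and 0 CPM, while Sox9, the cartilage transcription factor, had 9.64 and 11.4 CPM and was not called. Haemoglobin genes, the products of red cells, were the only 4 of 11 listed erythroid genes with enough counts. All 4 were called lower, beside 12.6% of all genes, with Hbb-bs at 7.97 and 454 CPM in 2 and 4 cells. These copies share reads, so they are not 4 separate results. Cd14, a monocyte receptor, had counts in 5 and 1 cells, and Pecam1, an endothelial adhesion molecule, had 61 and 5.33 CPM with 77.7% of its CD200-high counts in 1 cell. No neutrophil gene had enough counts to enter.

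The 3 cells whose title and gate label disagree were in plate 2 and entered no comparison. Their CD200 intensities were 308, 405 and 458, and they held 22117, 15815 and 23699 CPM of Cxcl12 and 803, 3.69 and 1594 CPM of Spp1 in this order.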
